A study of Arabidopsis thaliana with 6 samples.

Results

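Of the arrays in this series, those titled glc and man lay farthest apart, and the differences between these 2 of 6 arrays are described here. Glc is read as glucose. Whether man means mannitol or mannose is settled by no label, so the name is kept. A probe set, the group of oligonucleotides that reads a transcript, was compared when its signal reached the array's median on glc or on man (medians 42 and 40.3). That kept 12081 of the 22746 probe sets left after the control probe sets were removed. At the edge of this rule, a probe set reading 42 in glc and 24.8 in man was inside, and another reading 41.9 and 29.1 was outside. Each difference was then placed against the array titled wat, to ask whether glc, man or both stood away from it.

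The tissue was the whole seedling of Arabidopsis thaliana, accession Col-0, at growth stage 1.02. All groups shared continuous light at 23 °C, agar of 0.8% with Murashige and Skoog medium at 0.5 of full strength, and stratification for 72 h at 4 °C. The groups, titled glc, man, wat, zer, OMG and DOG, are known by those titles alone and have 1 array each. The labels name no dose, no duration and no agent, and their treatment field says none. Per its title, the series looked for genes that respond to glucose analogs a plant cannot metabolise, and OMG and DOG are read as those analogs. A single array per group allows no statistical test, so every difference below is a value of these arrays without a replicate check.

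Plants read glucose both as fuel and as a signal. Hexokinase phosphorylates it and also acts as a sensor, and when energy is short the kinase SnRK1 favours transcripts for breaking down amino acids, fatty acids and cell contents. A rich carbon supply goes with the opposite programme, in which the TOR kinase favours ribosome production and growth. Mannitol is widely used as an osmotic control for sugars, and mannose as a sugar that hexokinase phosphorylates but that is used slowly.

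Signals are linear intensities that the authors had scaled to a trimmed mean of 100 on each array, which assumes equal total signal. The SD of the log2 difference over compared probe sets was 0.492 for glc and man, the widest of 15 pairs, and 0.213 for OMG and DOG, the narrowest. The pair was chosen with these data known, so its rank describes the arrays and is no separate check. The green-tissue gene RCA, the activase of Rubisco, read 3130 in glc and 2906 in man. Of the 5 compared nuclear photosynthesis genes, 2 were higher in glc and 3 lower, among them LHCB4.2 at 1489.7 in glc and 1688.7 in man. The root gene PYK10, a beta-glucosidase, read 3016 in glc and 2638 in man, and all 3 compared root genes were higher in glc. Probe sets named for 1 gene alone were absent from the seed and cell cycle marker lists, so those were not checked. The 3′ to 5′ ratio of an actin control pair, which rises as RNA is less complete, was 6.41 in glc, 4.66 in wat and 4.55 in man. A second actin pair gave 1.76 in glc, 1.56 in wat and 1.72 in man. One ubiquitin pair gave 2.73 in glc and 2.48 in man, and the other 1.85 and 1.83. Both GAPDH pairs were lower in glc, at 1.26 against 1.35 in man and 0.864 against 0.944. The part of RNA completeness in the results below was not tested. In seedling extracts, fewer cells of a type and less RNA per cell cannot be told apart.

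More transcripts were lower in glc than in man than were higher, and the steepest of them were set apart from wat by glc. At least 2-fold apart were 530 probe sets, or 4.39% of those compared. Of these, 213 (1.76%) were higher in glc and 317 (2.62%) were lower. The lower group reached further: 101 were at least 3-fold lower, 46 at least 4-fold and 9 at least 8-fold, while 11 in the higher group reached 3-fold and 0 reached 4-fold. By comparison, OMG and DOG had 10 probe sets 2-fold apart, or 0.0845% of those compared. Another 128 probe sets of the glc and man pair missed the threshold at 1.9-fold to 2-fold, and 100 passed it at under 2.1-fold. Signals under the 40th percentile of their array (27.2 in glc, 26.7 in man, 28.6 in wat) were raised to it before any fold was taken, and a fold resting on such a value is written as at least. That touched 30 of the lower probe sets, which were at the floor in glc, and 25 of the higher ones, at the floor in man. The higher group was dimmer, with median signals of 123.6 in glc and 52.2 in man, against 96.4 and 270.4 in the lower group. The floor limits the folds of dim probe sets, and its part in the reach of the 2 groups was not tested.

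The share of the log2 difference that lay between wat and glc gave the origin of each difference. A share of 0.75 or more was called from glc, 0.25 or less from man, and anything between from both, since wat then lay well inside the gap. By this rule 276 differences (52.1%) came from glc, 225 (42.5%) from both and 29 (5.47%) from man. The lower group divided into 181 from glc, 116 from both and 20 from man, and the higher group into 95, 109 and 9. The median share was 0.78 in the lower group and 0.70 in the higher. Among lower probe sets, those from glc were 70 of 156 between 2-fold and 2.5-fold, 37 of 55 between 3-fold and 4-fold, 39 of 46 at 4-fold or more and 9 of 9 at 8-fold or more.

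The classes have soft edges, and few probe sets stood far from wat on each side. Of the 530, 222 had a share within 0.1 of a class limit. When the median of wat, OMG and DOG took the place of wat, the classes held 294 from glc, 213 from both and 23 from man, and 416 probe sets kept their class. Counted by size, 230 of the 530 were 2-fold from wat in glc only, 25 in man only, 1 in both and 274 in neither. Over all probe sets compared with wat, 2.42% were 2-fold apart in glc (0.847% higher, 1.57% lower) and 0.403% in man (0.243% higher, 0.16% lower). Both arrays stood at least 1.5-fold from wat on opposite sides for 30 probe sets, 21 lower and 9 higher, and for 17 of them this was also true of the median of wat, OMG and DOG. Wat read at or beyond man in 37 and at or beyond glc in 7.

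**Figure D1:**
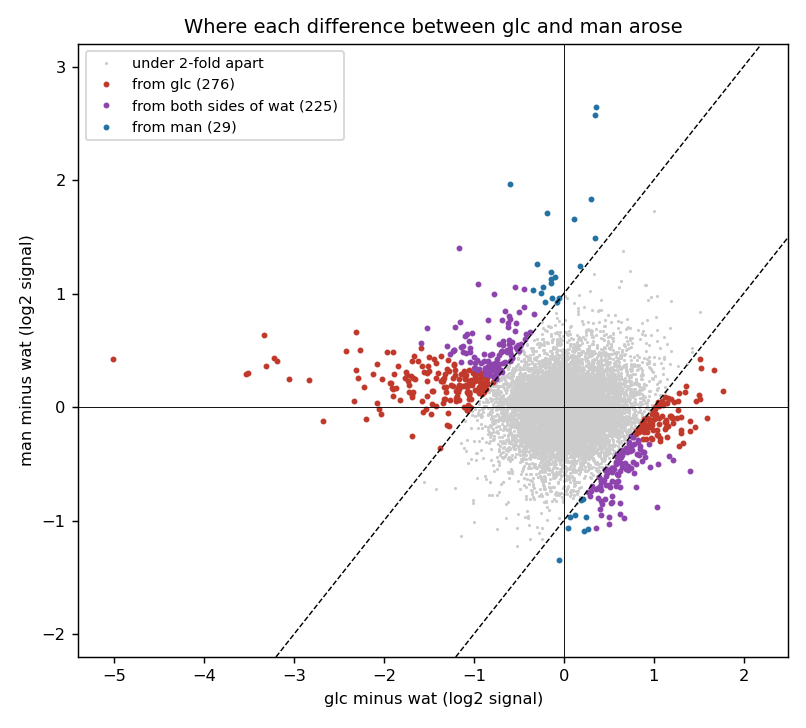
Each point is a compared probe set, with its log2 difference of glc from wat on the x axis and of man from wat on the y axis. Dashed lines mark 2-fold between glc and man, and colour marks the origin: the 276 from glc stretch along the x axis as far as a log2 difference of about -5, while the 29 from man run along the y axis.

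Genes of amino acid nitrogen release were mostly low in glc, and the steepest of them, GAT1_2.1 and ASPGB1, were called from glc. The gene GAT1_2.1 encodes a protein of the glutamine amidotransferase type. It read 187.5 in zer, 508.6 in wat, 50.3 in glc, 586 in OMG, 532.8 in DOG and 791.3 in man. Glc was the lowest array and man the highest, 15.7-fold apart, with glc 10.1-fold under wat and man 1.56-fold over it. Its second probe set was too dim to enter the comparison, at 1.9 in glc and 32.2 in man. ASPGB1, an asparaginase that frees ammonium from asparagine, read 82 in zer, 186.7 in wat, 37.5 in glc, 194.3 in OMG, 199 in DOG and 233.6 in man. The gap was 6.23-fold, and the 4 arrays without zer and glc stayed between 186.7 and 233.6. MGL, a methionine gamma-lyase that splits methionine, read 80.8 in zer, 123.6 in wat, 41.1 in glc, 101.2 in OMG, 80.7 in DOG and 182.7 in man, 4.45-fold lower in glc. Its share of 0.74 fell just inside the class from both, with man 1.48-fold over wat. The bifunctional lysine-degrading enzyme at AT4G33150 (LKR/SDH) was 2.27-fold lower in glc with a share of 0.58, at 126.9 in glc, 204.2 in wat and 287.6 in man. In the list of amino acid nitrogen release, 4 of 6 compared genes were 2-fold lower (2.62% of all compared probe sets) and 0 higher. DELTA-OAT was 1.82-fold lower and AT5G08300 1.35-fold higher, the latter at 483.6 in glc and 358.5 in man. The median log2 difference of the list was -1.67, against 0.06 over all compared probe sets.

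Genes for the breakdown of branched-chain amino acids in mitochondria were low in glc as well. MCCA and MCCB are the subunits of methylcrotonyl-CoA carboxylase, which acts on leucine. MCCA read 369.6 in zer, 697 in wat, 142.7 in glc, 728 in OMG, 737 in DOG and 833 in man, 5.84-fold lower in glc. MCCB read 474.6 in zer, 625.9 in wat, 186.5 in glc, 731.1 in OMG, 656.2 in DOG and 762.7 in man, 4.09-fold lower. In both, glc was lowest, zer next, and the other 4 arrays formed a narrow group with man at its top. IVD, the isovaleryl-CoA dehydrogenase just before it in the path, read 147.3 in glc, 484.5 in wat and 555.7 in man, 3.77-fold lower in glc. ETFQO, which hands electrons from these reactions to the respiratory chain, was 2.61-fold lower. ALDH6B2, the methylmalonate-semialdehyde dehydrogenase of valine breakdown, was 2.38-fold lower. These were 5 of the 9 compared genes of the list, where 2.62% of all compared probe sets were 2-fold lower. All 5 came from glc, with shares of 0.86 to 0.95. The other 4 compared genes of the list, ETFBETA, AT2G26800, ETFALPHA and D2HGDH, were 1.32-fold to 1.61-fold lower. For the 9 genes the median log2 difference was -1.25, against 0.06 over all compared probe sets. The separate medians were -1.20 from wat to glc and 0.14 from wat to man.

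Of the 2 compared genes in the list of the glyoxylate cycle and fatty acid oxidation, ICL was low in glc and AIM1, a beta-oxidation enzyme, read 178 in glc and 209.6 in man, 1.18-fold lower. ICL, the isocitrate lyase of the glyoxylate cycle, read 67.8 in zer, 101.7 in wat, 21 in glc, 128.6 in OMG, 121.4 in DOG and 142.5 in man. It was under the floor in glc and above 60 everywhere else, which made it at least 5.24-fold lower. Outside the list, SDP1, a lipase of oil bodies, was 2.13-fold lower, at 72.5 in glc and 154.4 in man. PPDK, which makes phosphoenolpyruvate from pyruvate, read 435.5 in zer, 650.2 in wat, 238.8 in glc, 721.2 in OMG, 621.5 in DOG and 874.8 in man, 3.66-fold lower. AKINBETA1, a beta subunit of SnRK1, read 320.9 in zer, 569.3 in wat, 206.1 in glc, 541.1 in OMG, 523.4 in DOG and 629.4 in man. It was 3.05-fold lower in glc with a share of 0.91, so man added little. The transcription factor BZIP53 was 1.51-fold lower and bZIP44 1.31-fold higher, both short of the threshold. With 2 more members known here by locus, 1 of the 5 genes of the SnRK1 list was 2-fold apart, beside 4.39% of all compared probe sets.

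Autophagy genes were mostly lower in glc, at a smaller size. The ATG8 proteins coat the membrane that encloses cell contents for recycling. ATG8E read 347.1 in zer, 469.7 in wat, 292.8 in glc, 533.9 in OMG, 540.1 in DOG and 582 in man, and at 1.99-fold lower it missed the threshold. ATG8F, at 596.6 in glc, 994 in wat and 1128 in man, was 1.89-fold lower. Of 10 compared genes, 9 were below 0, as were 5393 of the 12081 compared probe sets. Of the same 10, 0 were 2-fold apart, beside 4.39% of all compared probe sets. The median log2 difference was -0.57, with -0.38 from wat to glc and 0.20 from wat to man, each a separate median. The exceptions by size were ATG8D, at 115.2 in glc, 114.8 in wat and 131.7 in man, and AT3G61960, the only member above 0, at 120 and 117.3.

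Several transport, signalling and stress genes were also 2-fold lower in glc. Among those called from glc were SWEET2, a vacuolar sugar transporter, at 2.55-fold, and MTP11, a manganese transporter, at 2.80-fold. WRKY6, a transcription factor, was 2.83-fold lower, the RING-type gene ATL8 3.19-fold, COR27, a cold- and clock-regulated gene, 2.67-fold, and PAP85, of the vicilin-like seed proteins, at least 2.29-fold. MTP11 read 221.1 in glc, 610.1 in wat and 620 in man, nearly equal in wat and man. ALDH7B4, a stress-related aldehyde dehydrogenase, read 730.8 in zer, 955.1 in wat, 431.4 in glc, 1065 in OMG, 1046 in DOG and 1257 in man. At 2.91-fold lower with a share of 0.74, it fell to both by a small margin, and STR18, a sulfurtransferase, did so at 2.60-fold with 0.70.

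Genes known by locus alone filled much of the top of the lower group. AT1G19530 read 228.4 in zer, 728 in wat, 73.3 in glc, 724.7 in OMG, 659.3 in DOG and 935 in man, 12.8-fold lower in glc. AT5G66650 was 7.84-fold lower, at 35.1 in glc, 174.2 in wat and 275.2 in man. The remainder ran from 4.82-fold for AT2G32150 and 5.32-fold for AT3G49790 to at least 5.90-fold for AT4G37220 and at least 6.81-fold for AT3G45730. All 6 were called from glc. AT4G37220 is the least settled of them, since OMG and DOG read 92.6 and 92.8, well under wat at 174.2 and man at 160.4, and the median of those 3 arrays moved it to both. The probe set with the steepest difference has no gene name in the tables used here and was picked after its values were seen. It read 444.4 in zer, 876.1 in wat, 14.9 in glc, 860.1 in OMG, 766.4 in DOG and 1177.9 in man, at least 43.3-fold lower in glc. It fell under the floor in glc and was above 400 on each of the other arrays.

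The clearest case of both arrays standing apart from wat was AT2G38240. It read 28.8 in zer, 61.1 in wat, 25.7 in glc, 51.3 in OMG, 55.6 in DOG and 161.2 in man. It was the 1 probe set of the 530 that was 2-fold from wat on each side, at least 2.25-fold under it in glc and 2.64-fold over it in man, and glc and man were at least 5.93-fold apart. HIS1-3, a linker histone linked to drought, read 73.3 in zer, 78.1 in wat, 21.9 in glc, 89.2 in OMG, 65.6 in DOG and 126.5 in man. It was at least 2.87-fold under wat in glc and 1.62-fold over it in man. AT1G23120 read 69.8 in zer, 54.7 in wat, 28.3 in glc, 69.3 in OMG, 77.8 in DOG and 115.8 in man, a gap of 4.09-fold that wat divided almost evenly.

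Other genes with a symbol stood at least 1.5-fold from wat on opposite sides. OSM34, an osmotin-like protein, read 313.2 in zer, 380.8 in wat, 251.4 in glc, 422.3 in OMG, 469.5 in DOG and 651 in man. UPB1 (UPBEAT1), a transcription factor of root growth, read 43.1 in zer, 59.9 in wat, 34.9 in glc, 89 in OMG, 92.4 in DOG and 119.6 in man. OSM34 was 2.59-fold lower in glc with man alone at the top, and UPB1 was 3.43-fold lower with OMG and DOG also well over wat. With the median of wat, OMG and DOG as the middle, UPB1 passed to the class from glc and OSM34 stayed in both. BGLU46, a beta-glucosidase, was 2.51-fold lower, at 44.7 in glc, 68.7 in wat and 112.4 in man. GAT1_2.1 and the higher gene GSTU20 complete the 6 genes with a symbol among these 30 probe sets.

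Differences from man were few, and most of those with a symbol were defensins or plastid genes. PDF1.2, an antifungal defensin and a marker of jasmonate and ethylene signalling, read 13.8 in zer, 27.2 in wat, 36.8 in glc, 39.7 in OMG, 36 in DOG and 178.9 in man. Man alone was high, 4.86-fold over glc and at least 6.26-fold over wat. PDF1.2b, whose probe set shares probes with related transcripts, read 59.2 in zer, 89.5 in wat, 114 in glc, 217 in OMG, 192 in DOG and 532.8 in man, 4.67-fold lower in glc. Because OMG and DOG also exceeded wat, the median of those 3 arrays moved it to both. The remaining compared defensin of the list, PDF1.4, was 4.11-fold lower in glc, with the other origin. It read 187.4 in zer, 254.2 in wat, 61.2 in glc, 242 in OMG, 193.5 in DOG and 251.7 in man. Glc alone was low and wat and man were level, with a share of 1.01. The 3 defensins compared from the list were all 2-fold lower in glc (2.62% of all compared probe sets), but did not share an origin. PDF2.5, a defensin outside the list that was looked up later, was level, at 47.3 in zer, 45.5 in wat, 53.9 in glc, 49.7 in OMG, 54.6 in DOG and 51.1 in man. The other measured members of the list, THI2.1 and LCR67, were too dim to compare.

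Of 69 compared plastid-encoded transcripts 5 were 2-fold lower in glc, beside 2.62% of all compared probe sets, and 0 were 2-fold higher. All 5 came from man. They were rps14, a ribosomal protein gene, petD of the cytochrome b6f complex, rpoB of the plastid RNA polymerase, ndhF of the NADH dehydrogenase-like complex and psbT of photosystem II. The gene rps14 read 104.4 in zer, 46.3 in wat, 40.7 in glc, 38 in OMG, 41.3 in DOG and 151.2 in man, 3.71-fold lower in glc. The gene rpoB read 62.3 in zer, 29 in wat, 35.7 in glc, 37.4 in OMG, 26.9 in DOG and 103.6 in man, 2.90-fold lower. In both, zer stood with man above the other arrays. The same was so of petD, 2.93-fold lower at 65 in glc, 190.2 in man and 163 in zer, and of psbT, 2.02-fold lower at 249.7, 503.8 and 459.5. The gene ndhF, at least 2.44-fold lower, also read 58.7 in DOG, and the median of wat, OMG and DOG moved it to both. The plastid genes as a whole did not lean: of 69 compared, 34 were above 0 and 35 below, with a median log2 difference of -0.002. One actin pair's 3′ to 5′ ratio was 7.48 in zer, the highest of the arrays, with 6.41 in glc, 4.66 in wat and 4.55 in man. The second actin pair was also highest in zer, at 1.86, with 1.76 in glc, 1.72 in man and 1.56 in wat. A GAPDH pair was highest in zer, at 1.16, and man, at 0.944, against 0.856 in wat and 0.864 in glc. The other GAPDH pair gave 1.38 in zer, 1.35 in man, 1.26 in glc and 1.21 in wat. One ubiquitin pair gave 2.84 in zer, 2.73 in glc, 2.48 in man and 2.26 in wat. The other ubiquitin pair gave 1.96 in zer, 1.85 in glc, 1.83 in man and 1.84 in wat. The part of these ratios in the plastid values was not tested.

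CML41 and SBT3.5 were the other genes with a symbol called from man. CML41, a calmodulin-like protein, read 25.2 in zer, 60.6 in wat, 68.7 in glc, 104.5 in OMG, 145.1 in DOG and 143.9 in man, 2.09-fold lower in glc. DOG was as high as man, and the median of wat, OMG and DOG moved it to both. SBT3.5, a subtilase, read 37.2 in glc, 44.4 in wat and 89.2 in man, 2.40-fold lower. An unnamed probe set, picked after its values were seen, was larger, at 45.7 in zer, 234.9 in wat, 155.8 in glc, 346.5 in OMG, 240.3 in DOG and 918.6 in man. It was 5.90-fold lower in glc, with man 3.91-fold over wat.

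**Figure D2:**
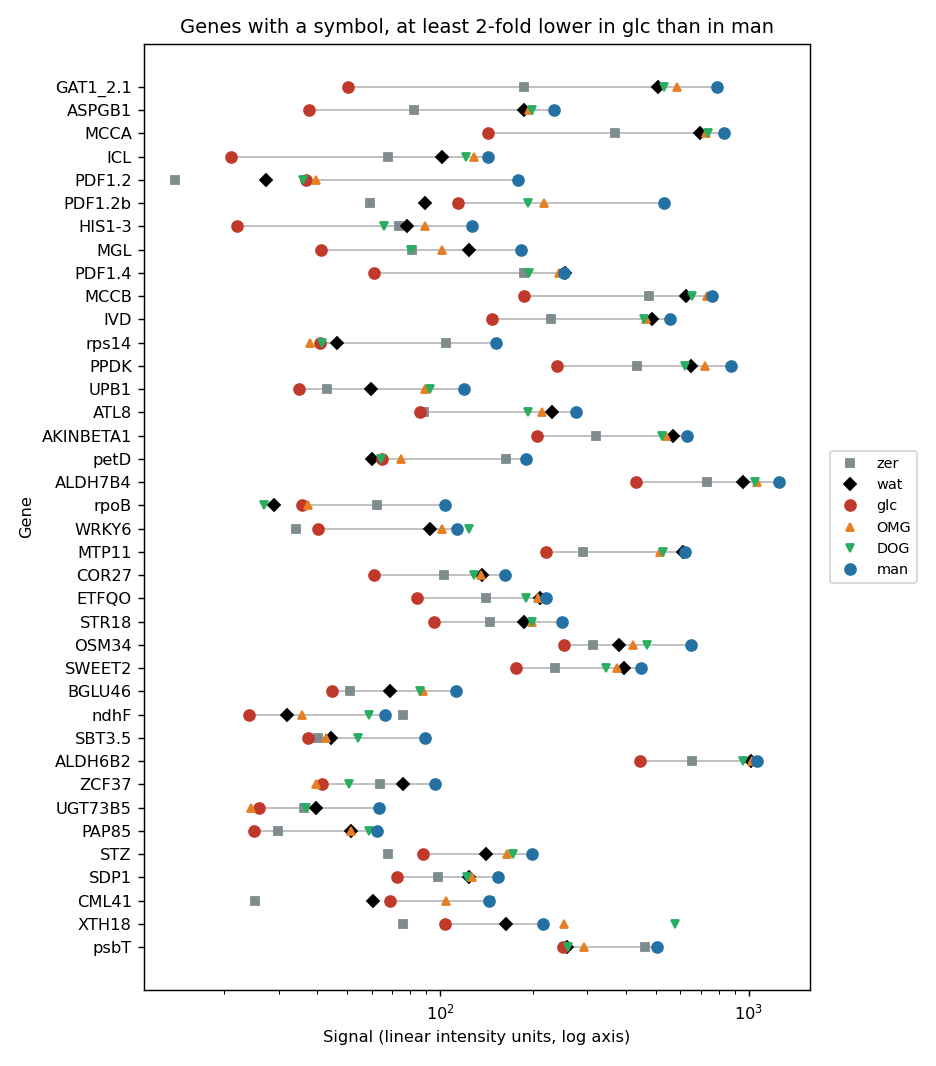
Signals on a log axis, in linear intensity units, of the 38 genes with a symbol whose signal in glc was 2-fold or more under that in man, with 1 marker per array and the steepest at the top. For most genes wat, OMG and DOG sit near man and zer lies between; PDF1.2, PDF1.2b, rps14, petD, rpoB and psbT are among those with the reverse, with wat near glc.

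Genes of ribosome production were higher in glc. The 10 compared genes of the list were all above 0, 4 of them 2-fold higher and 0 lower, where 1.76% of all compared probe sets were 2-fold higher. Their median log2 difference was 0.91, with 0.75 from wat to glc and -0.09 from wat to man. NRPA1 is the largest subunit of the polymerase that transcribes ribosomal RNA, RNA polymerase I. It read 31 in zer, 27.5 in wat, 69.6 in glc, 43.1 in OMG, 38 in DOG and 31.1 in man. Glc stood alone, 2.24-fold over man. NRPA2, the second subunit, was 1.59-fold higher, at 240.4 in glc and between 150.9 and 163.6 on the other 5 arrays. The remaining 8 members are known here by locus. AT2G34357 read 39.5 in zer, 22.4 in wat, 86.3 in glc, 25.9 in OMG, 37.9 in DOG and 24.5 in man, at least 3.23-fold higher in glc. AT4G04940 read 42.3 in zer, 30.3 in wat, 103.5 in glc, 30.3 in OMG, 30.5 in DOG and 33.4 in man, 3.10-fold higher. AT1G52930, brighter, read 362.9 in glc and from 156.5 to 179.4 elsewhere, 2.06-fold higher. All 4 of the 2-fold genes came from glc, with shares of 0.94 or more (wat was under the floor for NRPA1 and AT2G34357), and the other arrays varied less among themselves than that step.

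Of the 14 higher genes with a symbol, 5 came from glc, 9 from both and 0 from man. YAO, a nucleolar protein of ribosomal RNA processing, read 118.4 in glc, 75.1 in wat and 57.6 in man, 2.06-fold higher. NRPC2, a subunit of RNA polymerase III, read 78.4 in glc, 56.8 in wat and 39 in man, 2.01-fold higher. RBL (REBELOTE) read 57.7 in zer, 56.3 in wat, 131.7 in glc, 71.1 in OMG, 64.8 in DOG and 58.2 in man, 2.26-fold higher with glc alone. PPR596, a pentatricopeptide repeat protein, was 2.17-fold higher and Cpn60beta2, a plastid chaperonin subunit, 2.04-fold. TUB1, a beta-tubulin, read 112.6 in zer, 69.1 in wat, 124.1 in glc, 82.2 in OMG, 85.7 in DOG and 54.6 in man, 2.27-fold higher, and BRK1, of the actin-regulating SCAR complex, was 2.07-fold higher. YAO, NRPC2, Cpn60beta2, TUB1 and BRK1, called from both, had man at the bottom, under 1.5-fold from wat.

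The wall-remodelling genes XTH18 and XTH19 opposed each other. They encode xyloglucan endotransglucosylase/hydrolases, which cut and rejoin wall polymers. XTH19 read 75.6 in zer, 25.3 in wat, 82.1 in glc, 34.6 in OMG, 51.4 in DOG and 38.3 in man, 2.14-fold higher in glc. XTH18 read 75.8 in zer, 163.1 in wat, 103.9 in glc, 252.2 in OMG, 578.9 in DOG and 215.1 in man, 2.07-fold lower in glc. Glc and zer were the high arrays for XTH19 and the low arrays for XTH18. The expansin EXPA15, which loosens walls, read 133.6 in glc, 157.9 in wat, 102 in OMG, 110 in DOG and 70.6 in man, 1.89-fold higher in glc. By wat the difference lay with man, and the median of wat, OMG and DOG moved it to both. The wall list held 1 gene 2-fold higher and 1 lower of 6, beside 1.76% and 2.62% of all compared probe sets.

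GSTU20, a glutathione transferase, was the steepest higher gene with a symbol. It read 905.2 in zer, 323.9 in wat, 565.3 in glc, 395 in OMG, 312.5 in DOG and 198.9 in man, 2.84-fold higher in glc, at 1.75-fold over wat in glc and 1.63-fold under it in man. Man was the lowest array and zer the highest, above glc. PRA1.B4, of the prenylated Rab acceptor family, was 2.46-fold higher, the cation exchanger CHX16 at least 2.49-fold, and PGM, here a phosphoglycerate mutase, at least 2.18-fold. CHX16 came from glc, which read 66.5 against 22.9 to 36.9 elsewhere.

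Among the steepest higher genes known by locus, some stepped up in glc and some down in man. AT4G12500 read 128.8 in zer, 167.3 in wat, 444.2 in glc, 201.3 in OMG, 145.9 in DOG and 144.8 in man, 3.07-fold higher with glc alone at the top. AT1G23410 read 46.9 in zer, 60.6 in wat, 96.7 in glc, 48.4 in OMG, 45 in DOG and 30.7 in man, 3.15-fold higher, of which a share of 0.41 lay between wat and glc. AT5G47455, AT1G15250, AT3G59650 and AT3G18600 were called from glc, at 2.67-fold to at least 3.07-fold. Of these, AT1G15250 alone stayed in that class with the median of wat, OMG and DOG as the middle, and the others moved to both. AT4G30800, AT1G73620 and AT5G54370 were called from both, at 2.69-fold to 2.92-fold, with at least 2.78-fold for AT1G73620. The steepest higher probe set has no gene name here and was picked after its values were seen. It read 367 in zer, 174.9 in wat, 464.8 in glc, 188.8 in OMG, 161.4 in DOG and 118.1 in man, 3.94-fold higher in glc.

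Only 9 higher probe sets came from man, which was then the low array. AT3G61820 read 123.1 in zer, 83.8 in wat, 98.3 in glc, 72.2 in OMG, 78.1 in DOG and 39.4 in man, 2.49-fold higher in glc, and man alone was low. With the median of wat, OMG and DOG as the middle, its share of 0.252 fell just inside both. AT4G38660 was 2.05-fold higher. AT4G16970, at least 2.04-fold higher, read 32 in zer, 46.9 in wat, 54.4 in glc, 27.5 in OMG, 23.6 in DOG and 22.9 in man. OMG and DOG were as low as man, and the median of wat, OMG and DOG moved it to the class from glc. AT1G06000, from the flavonoid list, read 232.8 in zer, 180.3 in wat, 174.4 in glc, 96.5 in OMG, 79.2 in DOG and 70.9 in man, 2.46-fold higher. OMG, DOG and man were all low and glc and wat level, so the median of wat, OMG and DOG moved it to both. CHIL, a chalcone isomerase-like protein that aids flavonoid synthesis, read 244.6 in zer, 190.7 in wat, 229.8 in glc, 165 in OMG, 162.9 in DOG and 113.7 in man, 2.02-fold higher. Its share of 0.27 put it in both, close to the limit for man. UGT78D1, a flavonol glycosyltransferase, was 1.86-fold higher, at 87.9 in glc and 47.2 in man. In the flavonoid list 1 of 3 compared genes was 2-fold higher (1.76% of all compared probe sets) and all 3 were above 0 (6671 of 12081), with a median log2 difference of 0.90.

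**Figure D3:**
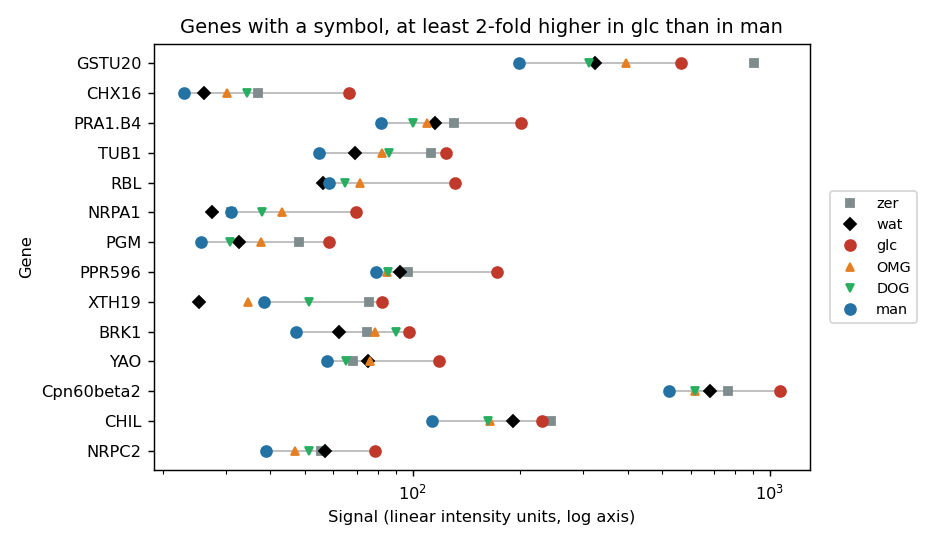
Signals on a log axis, in linear intensity units, of the 14 genes with a symbol whose signal in glc was 2-fold or more over that in man, with 1 marker per array. Glc is the highest array except for GSTU20 and CHIL, where zer exceeds it, and man is the lowest except for RBL, NRPA1 and XTH19.

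The other arrays were then placed on the line from man (position 0) to glc (position 1). In the lower group the median positions were 0.22 for wat, 0.20 for OMG, 0.21 for DOG and 0.65 for zer, and in the higher group 0.30, 0.31, 0.29 and 0.46. OMG and DOG thus sat with wat, on the man side. Zer was nearer glc in 230 of the 317 lower probe sets (72.6%) and in 99 of the 213 higher ones (46.5%). In the lower probe sets from glc the median position of zer was 0.57, as in GAT1_2.1 and MCCA, where zer lay between glc and the rest. In those from both it was 0.79. In the 20 lower probe sets from man, the median position was 0.90 for wat, 0.81 for OMG, 0.71 for DOG and 0.83 for zer. These positions use the glc and man arrays that chose the probe sets and the wat array that set the classes, so within a class the place of wat is fixed by the choice and no lean of another array against it can be read.

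**Figure D4:**
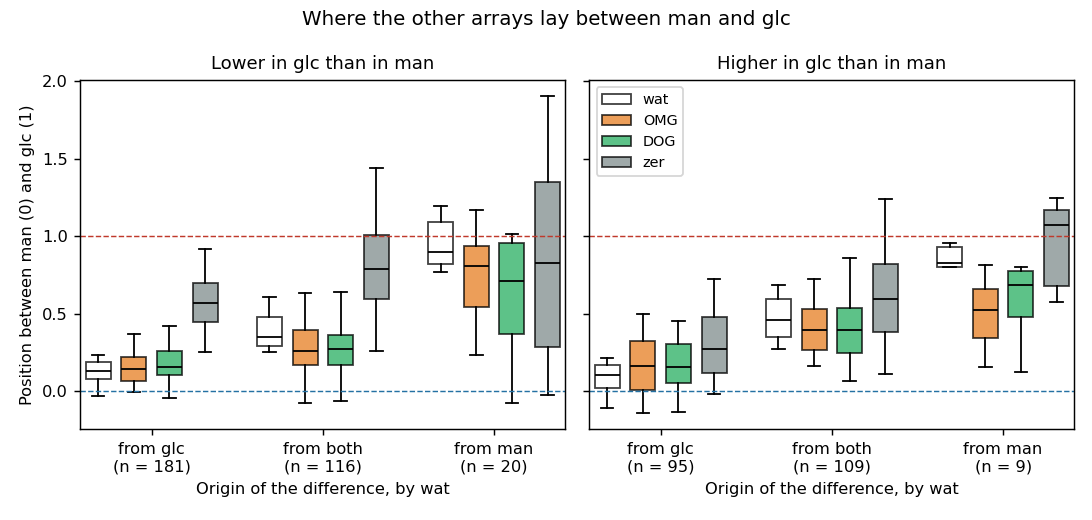
Boxes give the middle range (25th to 75th percentile, with the median as a line) of the position of wat, OMG, DOG and zer between man (0) and glc (1), by direction and origin. Whiskers span a wider range of percentiles that leaves out the outermost values at each end. Wat, OMG and DOG lie near 0 in the probe sets from glc, with zer higher, at a median of 0.57 in the lower ones.

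As extremes of the 6 arrays, glc was the lowest in 269 and man the highest in 259 of the 317 lower probe sets, and both held in 217. In the 213 higher ones, glc was the highest in 191, man the lowest in 165, and both held in 144. Without zer the lower counts became 306, 263 and 253 and the higher ones 210, 172 and 169. Zer therefore stood beyond glc or man in part of them, as it did for GSTU20, XTH18 and the plastid gene ndhF. The glc and man arrays chose these probe sets, so their place at the ends is largely set by that choice. The counts describe the chosen probe sets and are no separate check.

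The other lists held few compared genes each. The 5 compared nuclear photosynthesis genes had 0 members 2-fold apart, beside 4.39% of all compared probe sets, and a median log2 difference of -0.01. Sugar transport genes pointed both ways: the vacuolar transporter TMT1 was 1.63-fold lower, at 223.4 in glc and 364.6 in man, and the vacuolar fructose transporter SWEET17 1.62-fold higher, at 256.1 and 158.2. DPE1, which frees glucose during starch breakdown, was 1.71-fold higher. In the abscisic acid and cold list all 4 compared genes were below 0, as were 5393 of the 12081 compared probe sets. HIS1-3 alone was 2-fold lower, beside 2.62% of all compared probe sets. COR15B, a chloroplast cold-response protein, was 1.75-fold lower at 29.6 in glc and 51.7 in man. Of the touch genes, STZ, a zinc finger repressor, read 67.8 in zer, 141.3 in wat, 87.9 in glc, 164.6 in OMG, 172.3 in DOG and 198.8 in man, 2.26-fold lower with a share of 0.58. With CML41, both compared genes of that list were 2-fold lower, beside 2.62% of all compared probe sets. The clock gene GI read 84.7 in glc and 83.7 in man. The 3 compared root genes had a median of 0.19, and PYK10 was 1.14-fold higher in glc. AT3G15450, the only gene read from the dark-induced list, was 1.85-fold lower at 1623 in glc and 3010 in man.

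**Figure D5:**
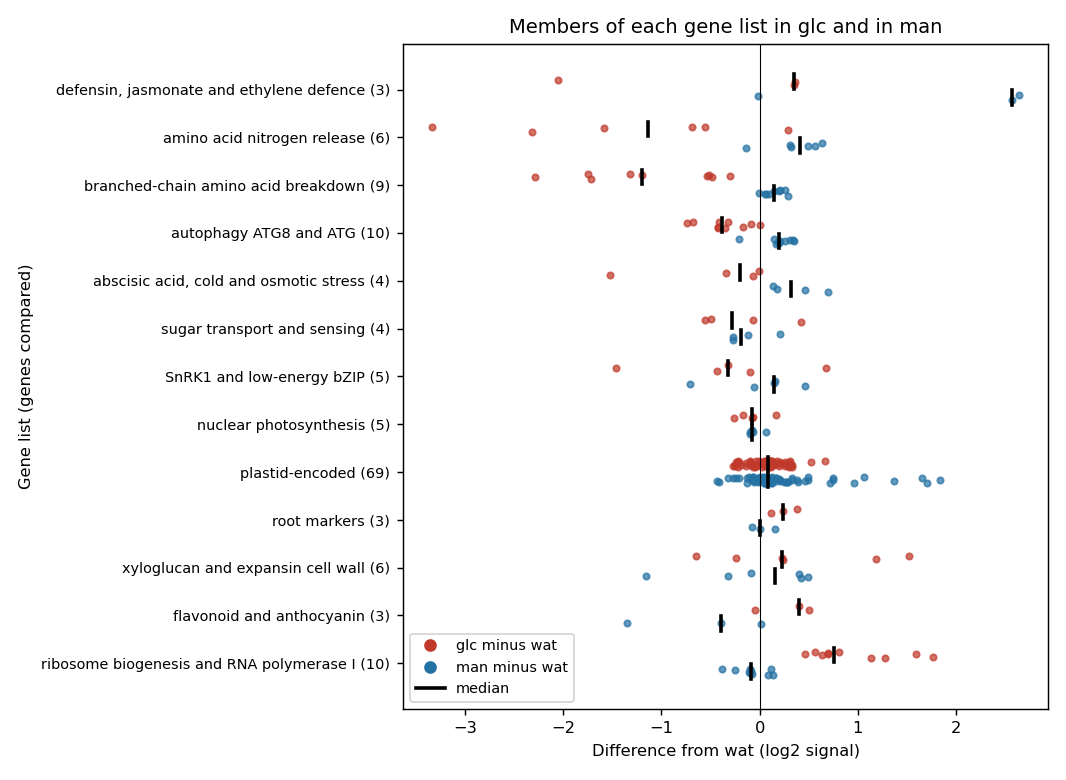
Points are the compared genes of each list, in red their log2 difference of glc from wat and in blue of man from wat, with black bars for the medians and the number of genes in brackets. In the amino acid and autophagy lists the red points lie mostly left and the blue points mostly a little right of 0, in the ribosome list the red points lie right, and in the defensin list 2 blue points lie beyond 2.5.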

How the data were processed

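Total RNA of whole seedlings was labelled with biotin and read on 6 oligonucleotide arrays. The deposited values are intensity signals per probe set. The submitters' processing notes name MAS5, whose version is not given in the sources used here. The table held 22810 probe sets, of which 64 controls were left out. Each array's mean, with 2% trimmed at each end, was 100, so the authors had scaled the arrays before they deposited the intensities. From these, log2 signals were computed with a floor at the array's 40th percentile, and probe sets at or above the array's median in glc or man were kept. A difference was counted from 2-fold, without a test. Number of arrays, and not depth, limits the precision.

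The platform annotation and a gene table of the TAIR10.1 assembly named 13513 probe sets for 1 gene (13436 matched that table) and 503 for several; 8730 are unnamed here. The brightest probe set stood for a gene. Of 339 entries in 23 gene lists, members with a probe set named for them alone were called measured.

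The text names single genes by this rule: the 12 largest folds in each direction, the 4 largest in each origin class and direction, up to 4 members of each list and up to 6 plastid genes. Outside it are the other genes with a symbol among those 2-fold apart, given as a complete set, further list members and 3 unnamed probe sets, all chosen after their values were seen. The comparison, the lists and the rule were chosen with earlier results of these data known. The alternatives were another floor, a pseudocount, other filters, other scalings, other middle arrays, other class limits and, added after seeing the data, the omission of probe sets that share probes. Python 3.11.15, numpy 2.4.6, pandas 2.3.3, scipy 1.17.1 and matplotlib 3.10.9 were used, and the code was tested on simulated data.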

Additional observations from a re-analysis of the deposited data

How the results depend on the processing

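With 1 array per group nothing here has a replicate check, and dim transcripts are limited by background. No paired analysis was possible because each group has 1 array. Across 11 alternatives, 106 of 126 recomputed counts and medians stayed close to the values above (counts within 1.5 times, medians within the SD of 0.213 between OMG and DOG). Counts cannot change sign, medians close to 0 were not checked for it, and 0 of the other medians changed sign. Of 49 named genes 2-fold apart, 34 remained so in every alternative that was run and all 49 kept their direction. Those under 2-fold in at least 1 were AT1G52930, AT1G73620, AT3G59650, AT3G61820, AT4G16970, AT4G38660, AT5G47455, AT5G54370, CML41, NRPA1, STZ, XTH18, XTH19, ndhF and psbT. A pseudocount of 32 in place of the floor left 50 probe sets higher in glc (27 from glc, 1 from man, 22 from both) and 208 lower (8 from man, 67 from both). It brought the median log2 differences to -1.28 for amino acid nitrogen release, 0.70 for ribosome production, -1.62 for defensins and 0.60 for flavonoids. Requiring the median signal in both arrays left 140 higher (5 from man, 66 from both) and 10 lower from man. The higher probe sets from man numbered 14 with a floor at the 20th percentile, 5 after quantile normalization, 15 with DOG as the middle and 17 with class limits of 0.33 and 0.67, which also left 61 lower from both. The median log2 difference over all compared probe sets was 0.057, -0.003 with equal medians and 0.027 after quantile normalization.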

Other observations

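Gene families formed from shared symbol prefixes, after the names and earlier results were known, give a view beyond the lists. All 5 compared beta-tubulin genes (TUB1, TUB5, TUB6, TUB7 and TUB9) were above 0, with a median log2 difference of glc from man of 0.59. Here and below, the medians from wat to glc and from wat to man are separate and need not add up; for the tubulins they were 0.39 and -0.34. Of 11 TBL genes, a family with members that acetylate wall polysaccharides, 10 were above 0. Their median was 0.31, with 0.04 from wat to glc and -0.29 from wat to man. Of 11 serine carboxypeptidase-like genes (SCPL), 10 were above 0, with a median of 0.34, and of 5 genes for subunits of RNA polymerase II (NRPB), 4 were above 0, with a median of 0.47. Over all compared probe sets 6671 were above 0 and 5393 below, with a median of 0.06.

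Families of conjugating and detoxifying enzymes did not share a direction. Of 23 UGT glycosyltransferase genes, 14 were below 0 and 1, UGT73B5, was at least 2-fold lower; the median was -0.18, with 0.04 from wat to glc and 0.29 from wat to man. Of the 10 compared genes of the CYP prefix, most of them cytochrome P450 genes of the CYP71B group, 4 were above 0 and 5 below, with a median of -0.15 (0.04 from wat to glc and 0.28 from wat to man). Of 8 GSTU genes, the tau glutathione transferases, 5 were above 0 and 3 below, with a median of 0.22. GSTU20 was the 1 that was 2-fold higher, beside 1.76% of all compared probe sets. TUB1 and UGT73B5 apart, 0 members of the TUB, TBL, SCPL, NRPB, UGT and CYP groups formed from symbols were 2-fold apart. Over all compared probe sets 4.39% were 2-fold apart, so few would be in groups of this size. These small shifts have no replicate check. Genes known here by locus alone could not enter these groups, so family members without a symbol were not counted.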
